A study of Homo sapiens with 24 samples.

Results

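MB468res-R8 (R8) and MB468 cells were compared after 12 h in homocysteine medium, 3 libraries of each cell line, which are 6 of the 24 RNA libraries of the study. Members of the comparison are all genes other than spike-ins in those libraries: 26645 gene entries, of which 14739 had enough counts to be tested. MB468 (MDA-MB-468) is a triple-negative breast cancer cell line that needs methionine (Met) to proliferate, and R8 is a clone selected from it by prolonged culture with homocysteine (Hcy) in place of Met, so it stands for 1 revertant and carries whatever else it gained in that selection. At 0 h both lines were in Met+ medium with 100 µM Met, and at 0.5, 2, and 12 h they were in Met-Hcy+ medium with 370 µM DL-Hcy and no Met. The cells in every group were grown with dialyzed serum, vitamin B12, glutamine, and cysteine. Met+ medium was not sampled at 12 h, so an effect of Hcy medium and an effect of time in culture cannot be told apart here, and the labels do not say whether replicates were separate cultures, so p-values measure the spread between these libraries.

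Met is activated to S-adenosylmethionine (SAM), the methyl donor for phosphatidylcholine, nucleic acids, and histones, and the Hcy left after methyl transfer is either remethylated to Met by the vitamin B12-dependent enzyme MTR or diverted to cysteine by CBS and CTH. Shortage of an amino acid activates the kinase GCN2, which favours translation of the transcription factor ATF4, and ATF4 with its partner CHOP drives genes of amino acid uptake and synthesis. Sterol and fatty acid synthesis genes are driven by SREBP transcription factors, whose processing responds to membrane lipids.

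The 6 libraries held between 19911185 and 35153392 counts, with 0.227 to 0.296% of them on spike-ins. Normalized log2 values correlated at 0.9967 to 0.9979 between libraries of the same line and at 0.9574 to 0.9588 between the lines. Basal and luminal keratins and EGFR were high in both lines, and the 19 epithelial genes summed to 283000 to 290000 normalized counts in MB468 and 312900 to 328500 in R8. Of the 3 receptor genes that define the triple-negative class, PGR had at most 1.15 normalized counts in any library, while ESR1 averaged 363 in MB468 and 109.8 in R8 and ERBB2 1765 and 946. RB1 and SMAD4, which are known to be lost from MDA-MB-468, had 26.8 and 6.46 normalized counts in MB468 and 25.9 and 4.52 in R8. Of the 7 fibroblast markers COL1A2 and COL3A1 were at 0 in all 6 libraries, and the list summed to 339 to 362 in MB468 and 682 to 888 in R8, nearly all of it COL1A1. The 5 endothelial markers summed to 3257 to 4034 in MB468 and 234 to 282 in R8, of which KDR, the VEGF receptor gene, held 3558 and 198, while CLDN5 stayed under 4 normalized counts. The 6 leukocyte markers summed to 1412 to 1695 in MB468 and 707 to 747 in R8, from CD14 (1433 and 519) and CD68 (82.5 and 212), with PTPRC, CD3E, and LYZ under 4. In bulk RNA, fewer cells of a kind and less RNA per cell cannot be told apart.

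At 12 h most of the transcriptome differed between the lines. R8 was higher than MB468 in 5244 genes (35.6% of those tested) and lower in 5524 (37.5%), so that 10768 genes (73.1%) were called by edgeR's quasi-likelihood test (adjusted p under 0.05, Benjamini-Hochberg). Of these, 2969 (20.1% of genes tested) differed at least 2-fold, 1171 higher and 1798 lower in R8. All 3 libraries of a line lay on the same side of all 3 of the other in 11116 genes (75.4%). At 0 h, with both lines in Met, 7895 genes (53.6%) were called, and 1424 of them differed at least 2-fold. The median absolute log2 difference over all tested genes was 0.26 at 0 h, 0.23 at 0.5 h, 0.28 at 2 h, and 0.49 at 12 h.

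Each gene called at 12 h was placed by its own difference at 0 h and by the test of the change of the difference between 0 h and 12 h, which called 8379 genes (56.8%). A difference already present at 0 h in the same direction is named carried, one that was present in the opposite direction is named turned, and one that was not called at 0 h but whose change was called is named new. Carried differences made up 5077 of the 10768 genes (47.15%), new ones 3257 (30.25%), and turned ones 1398 (12.98%), while 1036 (9.62%) could not be placed since neither the 0 h difference nor the change was called. Among the 2969 genes with at least 2-fold, 1806 were carried (60.83%), 739 were new (24.89%), 174 were turned, and 250 could not be placed. In 2269 of the carried genes the difference widened by 12 h, in 467 it narrowed, and in 2341 no change was called. Of the 1806 carried genes with at least 2-fold at 12 h, 1006 widened, 80 narrowed, and 720 had no change called. Being carried thus does not mean that the difference was already 2-fold at 0 h. A further 883 genes that differed at 0 h no longer did at 12 h, with the change called, and are named closed. Across the 14739 genes the line differences at 0 h and 12 h, which share no library, correlated with Pearson's r of 0.66 and Spearman's rho of 0.48, a description across genes that share the same cell lines and scaling.

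**Figure D1:**
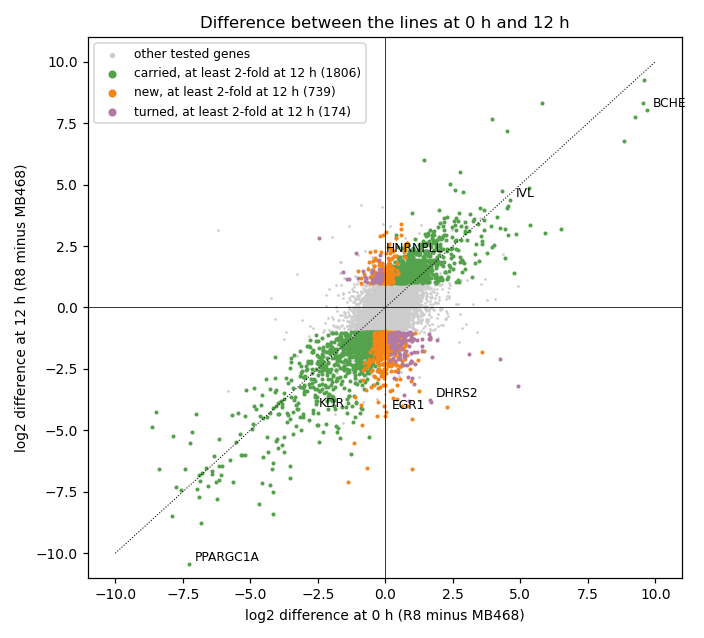
Each point is 1 tested gene, with its log2 difference between R8 and MB468 at 0 h on the horizontal axis and at 12 h on the vertical axis. Colours mark the 1806 carried, 739 new, and 174 turned genes with at least 2-fold at 12 h, the dotted line marks equal differences, and most of the new genes lie in bands above and below the centre, where the 0 h difference is near 0. Points of genes with hardly any counts in 1 line, such as PPARGC1A, have no measured fold.

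Scaling of the libraries moved the 0 h difference more than that at 12 h. With library sizes taken from the spike-ins, the median log2 difference of all genes went from -0.014 to -0.31 at 0 h, where 1143 genes were then called higher and 6494 lower in R8 against 3728 and 4167, and from -0.025 to -0.11 at 12 h, with 3549 higher and 5097 lower. The change between the times had 4051 genes called up and 1745 down in R8 relative to MB468 against 4226 and 4153, with a median of 0.20 against -0.010. The 0 h medians of the gene lists described here moved down by about as much as that of all genes, among them ATF4 and CHOP targets to -0.59, sterol synthesis to -0.58, and fatty acid synthesis to -0.47.

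Genes that were nearly silent in 1 line at both times led the carried differences. BCHE, which encodes butyrylcholinesterase, had 527, 535, and 546 normalized counts in the R8 libraries at 12 h and 1.21, 2.14, and 2.51 in MB468 (log2 difference 8.04 ± 0.21, SE, adjusted p = 4.03e-30). At 0 h its mean was 905 in R8 and 0.902 in MB468, so the gene was on in R8 and close to absent in MB468 throughout. ZNF516, a zinc finger gene, was placed the same way, at 116, 114, and 121 in R8 against 1.82, 0, and 0.627 in MB468 (log2 difference 6.76 ± 0.31, adjusted p = 1.11e-20). VCX3B and VCX, near-identical X-linked copies between which counting may split reads, were also high in R8 only, with means of 1271 and 4.03 for VCX3B. IVL, the involucrin gene of the cornified envelope, had 463, 424, and 411 in R8 and 20.6, 18.2, and 23.2 in MB468 at 12 h (log2 difference 4.36 ± 0.19, adjusted p = 1.99e-18), and 4.61 at 0 h.

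In the other direction, PPARGC1A, the PGC-1alpha coactivator of mitochondrial biogenesis (chromosome 4, 23792021 to 24472905, GRCh38.p14), had 179, 175, and 172 normalized counts in MB468 at 12 h and none in R8. Against a floor of 3 counts over the 3 R8 libraries it was at least 176-fold lower in R8, and at 0 h the MB468 libraries held 64.0, 86.7, and 65.3. AADACL3 had 1 count in all over the R8 libraries and 693 over MB468, a ratio of 500.3 with a 95% counting interval of 89.5 to 19790. GRB10, an adaptor of growth factor receptors, had 454, 410, and 420 in MB468 and 1.81, 2.31, and 3.83 in R8 (log2 difference -7.27 ± 0.23, adjusted p = 2.42e-27). C16orf70 was similar, with a mean of 193 in MB468 and 1.32 in R8. A change of the line difference between 0 h and 12 h was not called for BCHE, ZNF516, IVL, PPARGC1A, AADACL3, GRB10, or C16orf70, although within a line BCHE and ZNF516 fell in R8 by 0.76 and 0.83 and PPARGC1A rose in MB468 by 1.27.

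New differences of any size were nearly even in direction, with 1566 genes newly higher (10.62% of those tested) and 1691 newly lower in R8 (11.47%). By at least 2-fold, 216 genes were newly higher and 523 newly lower. All genes with at least 2-fold at 12 h also leaned lower, with 1171 higher and 1798 lower in R8. Of the 216, 103 fell in MB468 with no change called in R8, 58 fell in MB468 and rose in R8, and 35 fell in both lines, with a median log2 change of -1.20 in MB468 and 0.21 in R8. Of the 523, 207 rose in MB468 alone, 121 rose in MB468 and fell in R8, 107 fell in R8 alone, and 49 rose in both, with medians of 1.01 in MB468 and -0.44 in R8. Both sets held more genes that moved in MB468 alone than in R8 alone.

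**Figure D2:**
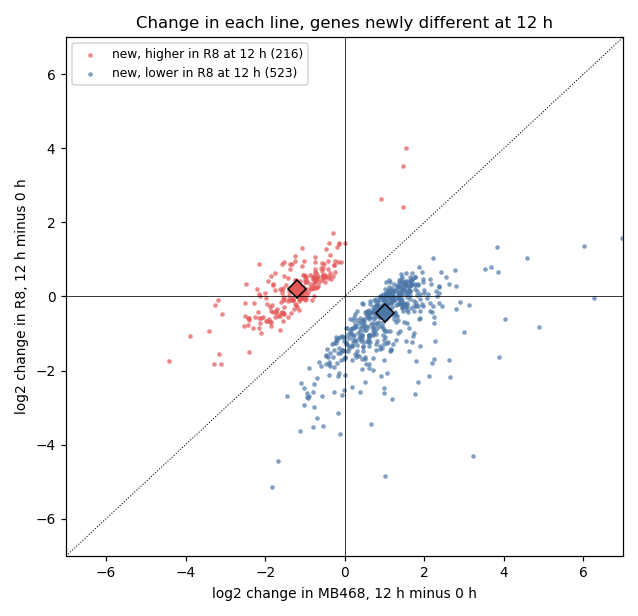
The log2 change from 0 h to 12 h in MB468 (horizontal) and in R8 (vertical) is plotted for the 216 genes newly higher and the 523 newly lower in R8 by at least 2-fold. Diamonds are the medians, at -1.20 and 0.21 for the first set and 1.01 and -0.44 for the second, and the dotted line marks equal changes.

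Leading the newly higher genes with at least 5 CPM in the higher line were a noncoding RNA and genes of diverse function. BLACAT1, a long noncoding RNA (chromosome 1, 205434886 to 205456045), had 14.5, 32.1, and 23.2 normalized counts in MB468 and 167, 182, and 155 in R8 at 12 h (log2 difference 2.92 ± 0.18, adjusted p = 4.03e-18). At 0 h the difference was -0.18 and the level was near 200 in MB468 (mean 204), so it was MB468 that moved. PCOLCE2, which encodes an enhancer of procollagen processing, differed by 2.25 ± 0.20 and TEX15, a gene of the germ line, by 2.22 ± 0.12, each having fallen in MB468 and risen in R8. SLCO2A1, a prostaglandin transporter gene, rose in both lines, by 0.91 in MB468 and by 2.62 in R8, and had 150, 156, and 173 in R8 against 41.2, 32.1, and 37.0 in MB468 (adjusted p = 1.61e-11).

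EGR1, an early growth response transcription factor (chromosome 5, 138465479 to 138469303), led the newly lower genes among those with at least 5 CPM in the higher line. It had 4456, 4018, and 4008 normalized counts in MB468 at 12 h and 181, 292, and 191 in R8 (log2 difference -4.26 ± 0.13, adjusted p = 4.91e-16), from 949 and 977 at 0 h, having risen in MB468 by 2.13 and fallen in R8 by 2.16 on the log2 scale. CCL20, a chemokine gene, was not called changed in MB468 (205, 198, and 177 at 12 h, mean 211 at 0 h) and fell in R8 to 6.34, 17.3, and 17.2 (log2 difference -3.85 ± 0.21, adjusted p = 3.24e-19). LINC01447, a noncoding RNA, rose in MB468 and fell in R8 (log2 difference -3.39 ± 0.15), and so did INHBE, the gene of an activin subunit made in liver (-3.36 ± 0.35, adjusted p = 8.84e-08), whose 0 h libraries spread from 83.0 to 197.

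Turned genes include some of the largest responses of MB468. CHAC1, a glutathione-degrading enzyme and target of ATF4, was higher in R8 at 0 h (231 against 124) and 13.9-fold lower at 12 h, as described with the ATF4 targets. DHRS2, a mitochondrial reductase gene, had 37.0, 30.5, and 44.0 normalized counts in MB468 at 0 h and 1129, 1037, and 1187 at 12 h, while R8 went from 119, 117, and 101 to 94.1, 92.2, and 58.4 (log2 difference at 12 h -3.78 ± 0.13, adjusted p = 3.76e-26). HNRNPLL, a splicing regulator (chromosome 2, 38561969 to 38602928), fell in MB468 to 211, 216, and 234 and stood at 949, 960, and 998 in R8 (log2 difference 2.13 ± 0.08, adjusted p = 2.34e-24). PRPF8, a core spliceosome gene, met the same definition with a log2 difference of 2.81 ± 0.88 (adjusted p = 0.00828), but its libraries scattered, from 69.8 to 483 in R8 at 12 h and from 37.0 to 418 in MB468 at 0 h.

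Closed differences with at least 2-fold at 0 h numbered 133, of which 93 had been higher and 40 lower in R8. NR4A3, an orphan nuclear receptor gene, had 2907, 2635, and 1503 normalized counts in R8 and 636, 523, and 520 in MB468 at 0 h, and fell in both lines to between 22.6 and 44.9 at 12 h. MN1, a transcriptional coregulator gene, went from a mean of 339 in R8 and 81.1 in MB468 to 40.0 and 41.4. TM7SF2, a sterol reductase gene, and PCDHGB5, whose last exons are shared with the other genes of its protocadherin cluster, had been lower in R8 by 1.33 and 1.60 and differed by -0.32 and -0.29 at 12 h, neither called (adjusted p = 0.0984 and 0.159).

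The time between showed when the new differences appeared. Of the 216 newly higher genes 45 (20.83%) were already called higher in R8 at 2 h, where 26.6% of all tested genes were, and 33 (15.28%) at 0.5 h, against 24.5%. Of the 523 newly lower genes 135 (25.81%) were called lower at 2 h, against 29.5%, and 75 (14.34%) at 0.5 h, against 24.5%. Their median log2 differences stayed at 0.06 and -0.07 at 0.5 h and 0.10 and -0.14 at 2 h, and reached 1.29 and -1.38 at 12 h. Membership required no call at 0 h, so the shares at 0.5 and 2 h describe these sets and are not a test. Among the carried genes with at least 2-fold, 740 of 795 higher and 888 of 1011 lower ones were called in the same direction at 2 h.

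Genes of the Met cycle and of Hcy use were split at 12 h. Of 22 tested members 12 were higher and 8 lower in R8, with a median log2 difference of 0.34 against -0.025 over all tested genes, and of 0.04 at 0 h (-0.26 with spike-in library sizes). For this and every list below, the shares over all tested genes at 12 h were 35.6% higher, 37.5% lower, and 73.1% called. Of all genes called at 12 h, 47.15% were carried, 30.25% new, and 12.98% turned. MAT2A, the enzyme that makes SAM (chromosome 2, 85539168 to 85545281), had 33570, 34990, and 34030 normalized counts in MB468 and 14200, 14790, and 15660 in R8 (log2 difference -1.20 ± 0.046, adjusted p = 1.28e-23). It was new: at 0 h the difference was 0.09, and it rose in both lines, by 1.95 in MB468 and 0.66 in R8. METTL16, the methyltransferase that acts on MAT2A RNA, was also newly lower in R8, by 0.57.

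Enzymes that use Hcy were called in both directions. MTR, which remethylates Hcy to Met, had 955, 1056, and 929 normalized counts in MB468 and 1623, 1644, and 1617 in R8 (log2 difference 0.74 ± 0.056, adjusted p = 3.99e-15), a turned difference, since it was -0.16 at 0 h. CBS and CTH, the enzymes that carry Hcy to cysteine, were lower in R8: CBS at 120, 114, and 133 against 449, 493, and 491 (log2 difference -1.96 ± 0.13, adjusted p = 6.11e-15) and CTH at 167, 249, and 214 against 937, 881, and 865 (-2.10 ± 0.14, adjusted p = 1.49e-11). Both had been lower by 0.63 and 0.66 at 0 h, and the change was called for each. MTRR, which reactivates MTR, was also lower, by 0.56 from 0.29, and BHMT, the betaine-dependent remethylation enzyme, differed by -1.36 (adjusted p = 0.0404) at means of 9.30 normalized counts in MB468 and 3.38 in R8. The polyamine synthases SRM and SMS were higher in R8, by 1.24 and 0.88, widened from 1.01 and 0.10.

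Folate and serine genes were called in 15 of 16 members, 6 higher and 9 lower, with a median of -0.30 against -0.27 at 0 h. MTHFD1 was higher in R8 by 1.11 ± 0.043, while MTHFD1L, PSAT1, and SHMT2, of mitochondrial folate and serine synthesis, were lower by 1.32, 1.25, and 0.96 and had been lower by 0.92, 0.51, and 0.39 at 0 h. MTHFD2 differed by -0.51 at 12 h and -0.48 at 0 h, with no change called.

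Targets of ATF4 and CHOP were lower in R8 almost throughout. Of 35 tested members none was higher and 32 were lower at 12 h, where 37.5% of all tested genes were lower, and 23 were lower by at least 2-fold. The median log2 difference was -1.63 at 12 h and -0.29 at 0 h. Of the 32, 20 were carried, 6 were new, 5 were turned, and 1 could not be placed. From 0 h to 12 h, 24 members rose and 7 fell in MB468 (median log2 change 0.89), and 5 rose and 26 fell in R8 (median -0.60).

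CHAC1 had 2557, 2586, and 2580 normalized counts in MB468 at 12 h and 184, 183, and 188 in R8 (log2 difference -3.80 ± 0.09, adjusted p = 1.36e-28). FGF21, the hormone gene that marks amino acid stress, had 320, 274, and 290 against 19.9, 18.4, and 13.4 (-4.09 ± 0.21, adjusted p = 2.21e-18). In both genes every MB468 library was more than 10-fold above every R8 library. GDF15, another secreted stress factor, had 292 counts in MB468 and 3 in R8, a ratio of 70.3 with a 95% counting interval of 23.8 to 343.

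Regulators within the list were among the new and turned members. PPP1R15A, which encodes the phosphatase subunit GADD34, had 5331, 5325, and 5128 normalized counts in MB468 and 890, 956, and 922 in R8 (log2 difference -2.51 ± 0.054, adjusted p = 1.37e-32), with -0.04 at 0 h. DDIT3, the CHOP gene, had 425, 446, and 409 against 135, 101, and 124 (-1.82 ± 0.11, adjusted p = 6.60e-18). SESN2, a sestrin that restrains mTORC1, turned from 0.93 at 0 h to -2.25 ± 0.08, having risen by 3.03 in MB468. CEBPG, a partner of ATF4, was newly lower by 2.35. ATF4 itself was carried, at -0.47 against -0.15 at 0 h.

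Amino acid transporter and synthesis genes of the list were lower as well. The transporters SLC6A9, SLC1A4, SLC7A1, and SLC7A5 were lower in R8 by 2.55, 2.30, 2.04, and 1.86, whereas ASNS, PYCR1, and PHGDH were lower by 0.86, 0.61, and 0.29. ASNS, asparagine synthetase, had 4016, 4249, and 4030 in MB468 and 2281, 2297, and 2190 in R8 (adjusted p = 4.54e-10), but it was carried, at -0.71 at 0 h, and fell in both lines. Of the 3 members not called lower, CARS, ALDH18A1, and VLDLR, the differences were -0.37, -0.016, and 0.05.

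The promoters of CHAC1, FGF21, and ASNS are shown as examples of list members that carry a composite C/EBP-ATF letter pattern and differ in their response. RefSeq promoters on GRCh38.p14, of 250 bases before and 50 after each start, were searched on both strands for TGATGNAAN. The pattern was found in 7 of the 31 tested members with a promoter in the table (22.58%). The members not shown were ATF3, SLC3A2, SLC7A1, and CARS. Their log2 differences at 12 h were -1.08, -1.63, -2.04, and -0.37, that of CARS not called. It was found in 197 of the 11214 promoters of genes tested (1.76%) and in 1002 of all 27305 promoters (3.67%). A second pattern, TCACNCCAC, was searched in the sterol list and found in 1 of 18 members (5.56%), against 122 of the 11214 (1.09%). Capitals mark TGATGNAAN. A match is a run of letters and not a measured site.
CHAC1 (chr15:40953221-40953520, plus strand): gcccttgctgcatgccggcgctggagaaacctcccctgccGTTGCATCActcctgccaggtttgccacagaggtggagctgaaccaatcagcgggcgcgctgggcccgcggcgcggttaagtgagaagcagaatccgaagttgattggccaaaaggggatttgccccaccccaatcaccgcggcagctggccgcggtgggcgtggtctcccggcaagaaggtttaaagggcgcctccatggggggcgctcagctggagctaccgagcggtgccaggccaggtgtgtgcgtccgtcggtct
FGF21 (chr19:48755274-48755573, plus strand): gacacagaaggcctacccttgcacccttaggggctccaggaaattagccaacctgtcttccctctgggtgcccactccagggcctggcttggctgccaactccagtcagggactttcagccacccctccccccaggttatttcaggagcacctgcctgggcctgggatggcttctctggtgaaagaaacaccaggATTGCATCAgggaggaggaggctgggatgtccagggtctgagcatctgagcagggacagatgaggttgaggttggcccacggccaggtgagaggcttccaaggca
ASNS (chr7:97872359-97872658, minus strand): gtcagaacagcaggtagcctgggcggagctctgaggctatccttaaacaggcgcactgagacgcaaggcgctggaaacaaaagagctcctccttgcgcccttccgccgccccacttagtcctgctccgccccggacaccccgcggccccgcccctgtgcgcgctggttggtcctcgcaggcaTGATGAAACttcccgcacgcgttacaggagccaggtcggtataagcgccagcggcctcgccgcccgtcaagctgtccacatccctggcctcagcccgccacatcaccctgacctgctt
The matches lie 210 and 55 bases before the start in CHAC1 and FGF21, on the strand opposite to that printed. In ASNS the match lies 68 bases before the start, on the printed strand. The log2 differences of CHAC1, FGF21, and ASNS at 12 h were -3.80, -4.09, and -0.86.

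**Figure D3:**
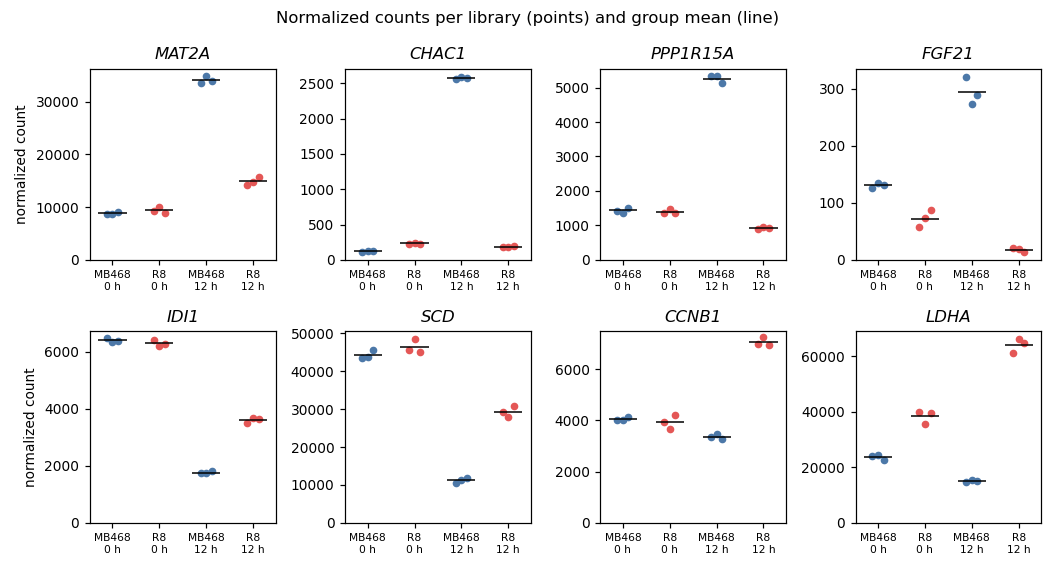
Normalized counts (vertical axes, from 0) of 8 genes in each library of MB468 (blue) and R8 (red) at 0 h and 12 h, with lines at the group means of 3 libraries. At 12 h the libraries of the lines do not overlap for any of the 8 genes, with MB468 above R8 for MAT2A, CHAC1, PPP1R15A, and FGF21 and R8 above MB468 for IDI1, SCD, CCNB1, and LDHA.

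Genes of the other arms of the unfolded protein response, pooled in a list and not separated by arm, were called in both directions. Targets of ATF6 and XBP1 had 14 members higher and 13 lower of 29, with a median of 0.13 (0 h 0.03, or -0.26 with spike-in library sizes) and 15 of the 27 new. The chaperone CALR was newly higher in R8 by 0.72 ± 0.038, and DNAJB9 was lower by 1.91 ± 0.09. Aminoacyl-tRNA synthetases had 7 higher and 9 lower of 20. RARS and QARS were newly higher in R8, by 1.19 and 1.18, and SARS was newly lower, by 1.09, while EPRS and AARS were carried, at -0.94 and -0.87.

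Early response genes were mostly higher in R8 at 0 h and mostly lower from 2 h on. Of 27 members 18 were lower and 4 higher in R8 at 12 h, with a median of -0.83, while at 0 h 15 were higher and 3 lower, with a median of 0.39 (10 and 3, with a median of 0.07, with spike-in library sizes). At 2 h 20 were already lower and 1 higher, with a median of -0.74. From 0 h to 12 h 22 members fell in R8 and 9 fell in MB468, where 12 rose. EGR3 and EGR2, relatives of EGR1, had 282 to 318 and 63.4 to 89.9 normalized counts in MB468 and 4.53 to 9.57 and 3.46 to 3.83 in R8 (log2 differences -5.26 ± 0.41 and -4.40 ± 0.29). NR4A1 turned from 1.07 to -3.12, FOS from 0.55 to -2.10, and JUN from 0.36 to -1.38. KLF6, FOSL1, and DUSP4 were the carried exceptions, higher in R8 by 1.05, 1.06, and 0.93, together with SPRY2 at 0.18.

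Targets of NF-kB and chemokines were lower in R8 in 10 of 14 members, against 37.5% of all tested genes, and higher in 2, with a median of -0.83 against -0.02 at 0 h (-0.32 with spike-in library sizes). RELB, a subunit of NF-kB, had 1209, 1187, and 1142 in MB468 and 213, 206, and 198 in R8 (log2 difference -2.52 ± 0.07, adjusted p = 6.30e-29). LIF, a cytokine of the interleukin 6 family, was lower by 4.03 ± 0.27, widened from 1.25. CCL2, the monocyte chemokine, was the other way, at 430, 452, and 398 in R8 and 118, 113, and 113 in MB468 (log2 difference 1.89 ± 0.13, adjusted p = 4.50e-14).

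Sterol synthesis was the clearest turned group. Of 25 members 22 were higher and 2 lower in R8 at 12 h, with a median log2 difference of 0.51, while at 0 h 1 was higher and 19 were lower, with a median of -0.28. The classes were 16 turned, 5 new, and 3 carried. All 25 fell in both lines from 0 h to 12 h, with median log2 changes of -1.71 in MB468 and -0.78 in R8. IDI1, the isopentenyl diphosphate isomerase gene, had 1731, 1734, and 1808 normalized counts in MB468 and 3511, 3675, and 3651 in R8 at 12 h (log2 difference 1.04 ± 0.042, adjusted p = 9.25e-24), from means of 6395 and 6295 at 0 h.

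With IDI1, the sterol enzyme genes LSS and HSD17B7 were the members with at least 2-fold, newly higher in R8 by 1.36 ± 0.19 and 1.12 ± 0.08. INSIG1, which retains SREBP in the endoplasmic reticulum, turned from -0.40 to 0.71 (adjusted p = 2.53e-04). SREBF2, the gene of SREBP-2, was carried and lower in R8, by 0.43. With library sizes from the spike-ins, 19 members were higher and 2 lower at 12 h, with a median of 0.43.

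Fatty acid synthesis had 17 members higher and 9 lower of 30, with a median of 0.36 against -0.17 at 0 h. SCD, the stearoyl-CoA desaturase gene, had 10540, 11240, and 11870 normalized counts in MB468 and 29170, 27820, and 30710 in R8 (log2 difference 1.38 ± 0.041, adjusted p = 3.24e-28) and was new, since the 0 h difference was 0.07. FASN, fatty acid synthase, turned from -0.18 to 0.82 ± 0.07, and ACLY, which makes its acetyl-CoA, turned from -0.16 to 0.70 ± 0.043. The desaturases FADS1 and FADS2 were lower in R8, by 1.76 and 1.37, but the gap had narrowed from 3.17 and 2.57, since both genes fell more in MB468 than in R8.

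Beta-oxidation genes were higher in R8 in 25 of 32 members, against 35.6% of all tested genes, and lower in 3 (18 and 4 with spike-in library sizes), with a median of 0.47 against 0.10 at 0 h (-0.20 with spike-in library sizes), and 26 had fallen in MB468 against 17 in R8. ACADM, the medium-chain acyl-CoA dehydrogenase, had 1144, 1223, and 1235 in MB468 and 1995, 2065, and 2078 in R8 (log2 difference 0.77 ± 0.05, adjusted p = 2.87e-17), newly. EHHADH was carried at 1.23 ± 0.12 and ECI2 widened to 1.19 ± 0.10. CRAT, carnitine acetyltransferase, was the only 1 of the 3 lower members with at least 2-fold, at 77.8, 74.9, and 69.8 in R8 against 225, 198, and 236, and this had narrowed from -2.91 to -1.57.

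Of 22 triglyceride and lipid droplet genes 7 were higher and 10 lower, with a median of -0.36 at 12 h and -0.18 at 0 h. MGLL, monoglyceride lipase, was higher in R8 by 1.81 ± 0.10 and PLIN3, a droplet coat protein gene, by 1.22 ± 0.047, while PLIN4 was lower by 1.77 ± 0.15. Phospholipid synthesis had 12 higher and 5 lower of 22, with a median of 0.18 against -0.12, but 6 higher and 5 lower, with medians of 0.09 and -0.42, with spike-in library sizes. LPCAT3, which remodels phosphatidylcholine, was higher by 1.15 ± 0.053 and PISD, which makes phosphatidylethanolamine in mitochondria, was lower by 0.90 ± 0.051.

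**Figure D4:**
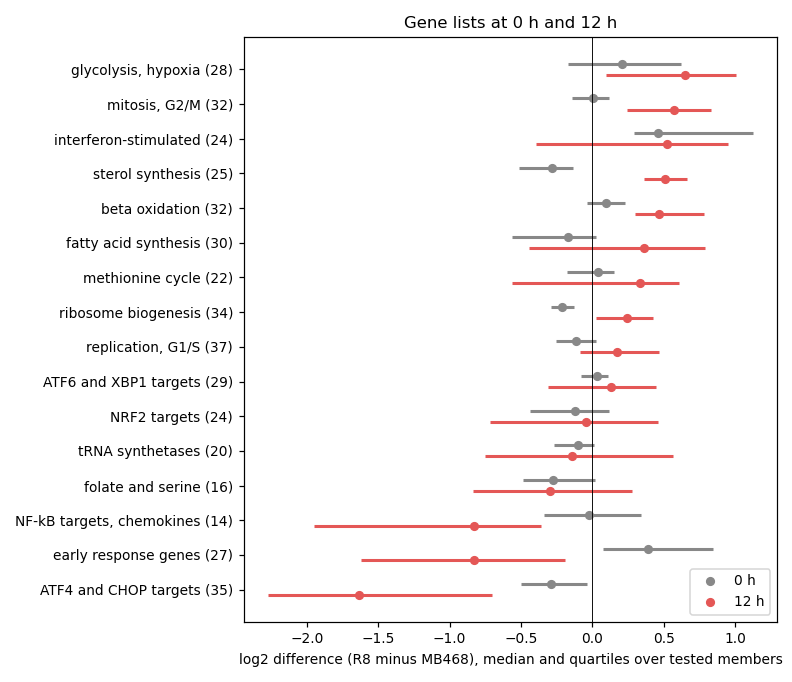
Median (point) and quartiles (bar) of the log2 difference between R8 and MB468 over the tested members of 16 gene lists at 0 h (gray) and 12 h (red), with the number of members in brackets. ATF4 and CHOP targets moved from -0.29 to -1.63, early response genes from 0.39 to -0.83, and sterol synthesis from -0.28 to 0.51.

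Mitotic genes were called in both directions alike at 0 h, with 9 higher and 9 lower (0 and 16 with spike-in library sizes), and were mostly higher in R8 at 12 h. Of 32 members 25 were higher and 4 lower, with a median of 0.58 against 0.01 at 0 h (-0.29 with spike-in library sizes), and 13 of the 25 were new. They rose in R8 (29 of 32, median log2 change 0.74), while in MB468 15 rose and 11 fell (median 0.07). CCNB1, cyclin B1, had 3364, 3456, and 3264 normalized counts in MB468 and 6978, 7274, and 6935 in R8 (log2 difference 1.07 ± 0.048, adjusted p = 2.18e-22), from -0.04 at 0 h. CDC25B, a phosphatase that activates CDK1, was lower in R8 by 1.09 and UBE2C by 0.64, both carried.

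Replication genes were higher in 19 and lower in 9 of 37 (75.68% called, near the 73.1% of all tested genes), with a median of 0.18 against -0.11. With spike-in library sizes 12 were higher and 7 lower, with medians of 0.09 and -0.41. MCM6, a subunit of the replicative helicase, was newly higher in R8 by 1.16 ± 0.042, since it fell by 1.09 in MB468 and not in R8, while FEN1 was newly lower by 0.79 and MCM7 was carried at -0.55. Of 10 CDK inhibitors and G1 cyclins 5 were higher and 4 lower, with a median of 0.21 against 0.14 at 0 h (-0.16 with spike-in library sizes). CDKN2B was newly lower in R8, at 546, 586, and 651 against 2067, 1955, and 2164 (log2 difference -1.80 ± 0.06). CDKN1A, the p21 gene, had 383, 388, and 439 in R8 and 270, 316, and 314 in MB468 (log2 difference 0.44 ± 0.17, adjusted p = 0.0280), narrowed from 1.31 at 0 h, and CCND1 was newly lower by 0.26.

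Ribosome biogenesis genes turned as well, with 23 higher and 7 lower of 34 at 12 h against 1 and 25 at 0 h, medians of 0.24 and -0.21, and 17 turned. With spike-in library sizes 12 were higher and 6 lower at 12 h (median 0.16) and 0 and 29 at 0 h (median -0.51). NPM1, nucleophosmin, had 29220, 30540, and 29750 in MB468 and 76000, 78890, and 77670 in R8 (log2 difference 1.38 ± 0.045, adjusted p = 1.38e-25). NOP2 and RRS1 were lower in R8, by 0.81 and 0.72. From 0 h to 12 h 24 members rose in MB468 and 32 in R8.

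Glycolytic and hypoxia genes were higher in R8 in 18 of 28 members, against 35.6% of all tested genes, and lower in 3. The 75% called were near the 73.1% of all tested genes. Their median was 0.65 against 0.21 at 0 h (-0.09 with spike-in library sizes). LDHA, lactate dehydrogenase A, had 14570, 15390, and 15160 in MB468 and 61250, 66280, and 64680 in R8 (log2 difference 2.09 ± 0.054, adjusted p = 2.10e-24), widened from 0.69. PFKP, a phosphofructokinase, differed by 2.07 ± 0.046, widened from 0.55, and CA9, a carbonic anhydrase induced by hypoxia, by 2.88 ± 0.08. ADM and VEGFA, both hypoxia targets, turned and were lower in R8 at 12 h, by 0.45 and 0.98.

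Targets of NRF2 were divided, with 10 higher and 10 lower of 24 and a median of -0.05. PGD, of the pentose phosphate pathway, was higher in R8 by 1.70 ± 0.040, and the ferritin gene FTL, HMOX1, and the cystine transporter gene SLC7A11 were lower by 1.40, 1.16, and 1.11, all 4 carried. Interferon-stimulated genes were mostly carried (15 of 18 called, 12 higher and 6 lower of 24). The 75% called were near the 73.1% of all tested genes. Medians were 0.46 at 0 h (0.16 with spike-in library sizes) and 0.52 at 12 h (0.45). OAS1 had 161, 173, and 183 in R8 and 13.9, 19.3, and 12.6 in MB468 (log2 difference 3.54 ± 0.18, adjusted p = 2.23e-20), and IRF1 was newly lower by 1.07.

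Genes of cell identity mostly kept the direction of their 0 h difference, but many of the differences changed in size. Of 19 epithelial genes 10 were higher and 8 lower, with 15 of these 18 carried and medians of 0.31 at 12 h and 0.14 at 0 h (-0.15 with spike-in library sizes). The change of the line difference was called up in 8 of the 19 and down in 6 (9 and 2 with spike-in library sizes). Over all tested genes it was called in 56.8%. KRT19 had 11050, 11870, and 13310 normalized counts in MB468 and 33560, 30690, and 34290 in R8 (log2 difference 1.44 ± 0.053), widened from 0.18. The simple-epithelium keratins KRT8 and KRT18 were higher by 1.03 and 1.14, widened from 0.278 and 0.565. Of the keratins of basal and stratified epithelium, KRT5, KRT6B, KRT14, and KRT17 were lower by 0.23, 0.97, 0.93, and 0.88. Of these KRT6B had narrowed from -2.03, and no change was called for KRT5, KRT14, and KRT17. KRT6A and KRT16 were higher by 1.19 and 0.31, narrowed from 1.97 and 0.80. The integrin genes ITGB4 and ITGA6, the laminin gene LAMB3, and CDH3, P-cadherin, were higher by 1.45, 1.08, 0.64, and 0.38. At 0 h they had differed by 0.596, 0.665, 1.060, and -0.018, and the change was called for each. CDH1 turned and was lower by 0.43, and TP63 was lower by 0.47. FOXC1, a basal transcription factor gene, was lower by 2.67 ± 0.07, widened from -0.59 at 0 h. EGFR, amplified in MDA-MB-468, turned from 0.51 to -0.10 ± 0.040 (adjusted p = 0.0214), and this call is lost with spike-in library sizes. ESR1 was lower in R8 by 1.72 and ERBB2 newly lower by 0.90.

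Squamous differentiation genes had 10 higher and 9 lower of 22 and mesenchymal and matrix genes 12 higher and 10 lower of 27, with 15 and 19 carried. Their medians were 0.15 and 0.30 at 12 h and 0.03 and 0.28 at 0 h, the latter -0.26 and -0.016 with spike-in library sizes. SPRR1B was higher in R8 and SERPINB2 and S100A7 lower, at log2 differences of 4.15, -4.00, and -2.40. VIM, vimentin, had 4031, 3443, and 3670 in R8 and 400, 504, and 558 in MB468 (log2 difference 2.94 ± 0.08, adjusted p = 1.05e-24), widened from 0.40, since it rose in R8 and fell in MB468. MMP7 and COL4A1 were lower in R8, by 4.15 and 2.62, at both times.

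Carried differences were unevenly placed along the genome. Positions were taken from RefSeq on GRCh38.p14 for 14191 of the tested genes. Carried genes lower in R8 made up 45.8% of the tested genes of chromosome 20 and 37.83% of those of chromosome 13, against 18.02% over all tested genes, and the median log2 difference of chromosome 20 was -0.34 at 0 h and -0.42 at 12 h. In 10 Mb windows with at least 10 tested genes, 29 of 288 had a median at least 0.3 from 0 at 0 h, 18 lower and 11 higher in R8. All 29 kept that sign at 12 h, and the median changes between the times lay between -0.25 and 0.22.

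Chromosome 7 held both directions. From its start to 60 Mb the 6 windows had medians between 0.47 and 0.87 at 0 h and between 0.42 and 0.79 at 12 h, and from 100 to 150 Mb the 5 windows had medians between -0.49 and -0.41 at 0 h and between -0.63 and -0.33 at 12 h. In the window from 0 to 10 Mb 49 of 71 genes were called higher in R8 at both times and 0 were called lower, against 16.43% and 18.02% of all tested genes. EGFR and GRB10 lie in the window from 50 to 60 Mb, but both were lower in R8 at 12 h, where the window's median was 0.42. EGFR had been higher in R8 by 0.51 at 0 h. On chromosome 1 the window from 10 to 20 Mb had a median of 0.94 at 0 h and 0.74 at 12 h, and on chromosome 6 the 3 windows from 140 to 170 Mb had medians between -0.50 and -0.38 at 0 h and between -0.55 and -0.44 at 12 h.

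**Figure D5:**
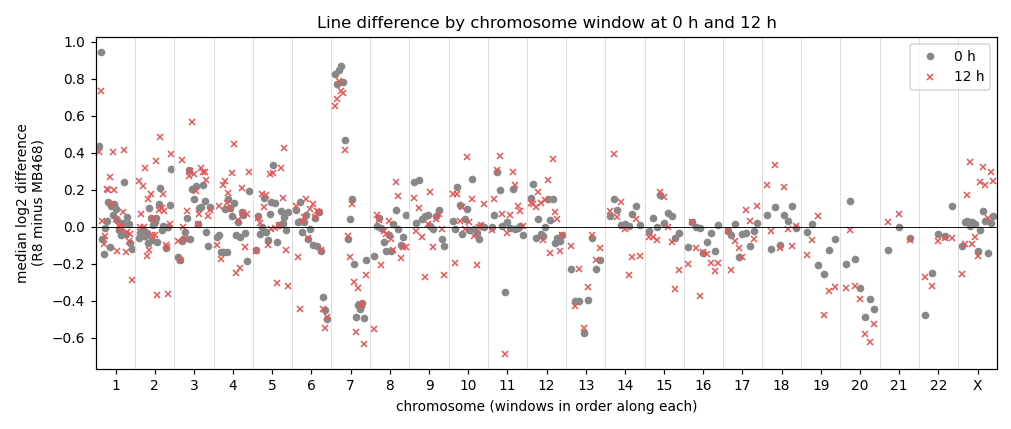
Median log2 difference between R8 and MB468 over the tested genes of each 10 Mb window with at least 10 genes, at 0 h (gray circles) and 12 h (red crosses), in order along each chromosome. The 6 windows at the start of chromosome 7 stand between 0.47 and 0.87 at 0 h, and windows of chromosomes 7, 13, and 20 stand below -0.3 at both times.

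New differences were uneven too. A gene called at 0 h cannot be new, so the shares of new genes depend in part on those of carried genes. On chromosomes 7 and 20 carried genes made up 28.71% and 9.21% (higher in R8) and 24.14% and 45.8% (lower), against 16.43% and 18.02% over all tested genes. The newly higher genes were 2.71% of those tested on chromosome 7 and 4.07% on chromosome 20, against 10.62% over all tested genes, and the newly lower genes were 17.5% on chromosome 19 and 17.18% on chromosome 16 but 7.43% on chromosome 7, against 11.47%. The correlation of the line difference between neighbouring genes was 0.20 at 0 h, 0.15 at 12 h, and 0.09 for the change, over 14166 pairs, a description across genes.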

How the data were processed

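RNA profiles of 24 libraries were analysed, and the comparison of R8 with MB468 at 12 h used the 6 libraries of that time, with the 6 at 0 h for the change. According to the submitters' processing notes, reads were aligned with HISAT2 2.1.0 to GRCh38/hg38 and counted per gene with featureCounts of Subread 1.5.3, and the counts deposited by the authors, not normalized, for 26645 gene entries and 92 spike-ins were used. The authors' normalized counts and table of results (fold changes and p-values) were not used. The poly(A) library kit does not mark strand, so reads of genes that overlap on opposite strands cannot be told apart. A symbol listed again with identical counts (4 entries) was kept once.

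Genes were kept by edgeR's filterByExpr (minimum count 10, minimum total 15), scaled by TMM, and fitted with 1 mean per line and time (8 in all) in edgeR 4.0.16 (R 4.3.3, limma 3.58.1) with robust quasi-likelihood dispersions over all 24 libraries. Differences are R8 minus MB468, with p-values adjusted (Benjamini-Hochberg) across the 14739 tested genes, and called at an adjusted p under 0.05. Standard errors are those implied by the test. Normalized counts were obtained from counts per TMM-scaled library, set to the mean scaled library of 22763665 counts, so that 22.8 of them are 1 CPM. Total gene counts set the precision of low genes, and intervals of ratios cover counting error only.

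The members, gene lists, and named genes were chosen with earlier results of these data known. Named genes are the 4 (carried, new) or 2 (turned, closed) with the largest differences per direction of a class (at least 2-fold, 5 CPM in the higher group, no overlap of libraries; for new, under 0.5 at 0 h), up to 3 per direction of each list, and a fixed list; other members were named after their values were seen. Alternatives were DESeq2's size factors or Wald test (DESeq2 1.42.0), spike-in library sizes, other filters, fewer libraries, a replicate block, an adjusted p under 0.01, other limits on the fold and on the 0 h difference, thinning to the smallest library, and leaving out each library. Some members of the lists are not reported here by name. The code was tested on simulated data.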

Additional observations from a re-analysis of the deposited data

Results flagged for a closer look

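The change from 0 h to 12 h differed between the lines in 8379 of 14739 genes by the test of the interaction of line and time, which is the test that separates new from carried differences. Among the turned genes the change of the line difference was -4.69 for CHAC1, -5.42 for DHRS2, 2.33 for HNRNPLL, and 5.28 for PRPF8 on the log2 scale. PRPF8 had between 313 and 483 normalized counts in 5 libraries (MB468 replicates 2 and 3 at 0 h, R8 replicate 1 at 2 h, and R8 replicates 1 and 2 at 12 h) and 123 or less in the others, so its libraries fall apart within groups.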

How the results depend on the processing

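Over 10 alternative settings 1689 of 1703 values of the 12 h difference of the 174 named genes kept their side of the threshold, and their direction where called. When each library of 0 h and 12 h was left out 2071 of 2088 did, and 0 called values were reversed in either set. The 0 h difference and the class of the named genes were not compared. EGFR (-0.19) was among those not called with spike-in library sizes. Such library sizes gave 4887 genes called at 2 h, 3995 at 0.5 h, 880 turned (115 with 2-fold) and 1325 closed. Without the filter 560 genes with 2-fold could not be placed. Requiring 10 counts in every library gave 1964 genes with 2-fold at 12 h, 681 at 0 h, 773 at 2 h and 646 at 0.5 h, 16 not placed and 58 closed with 2-fold, and a median of -0.209 (0.147 in the report) for squamous differentiation, with fewer members tested. The 0 h and 12 h libraries alone gave 5 lower beta-oxidation genes. An adjusted p under 0.01 gave 109 turned genes with 2-fold. At 1.5-fold there were 5778 genes at 12 h, 2797 at 0 h, 3106 at 2 h, 2558 at 0.5 h, 4110 for the change, 3191 carried, 460 turned, 1690 new, 437 not placed and 297 closed. Taking 0 h differences under 0.5 as not present gave 5881 new and 283 turned genes (83 with 2-fold). Leaving out 1 library gave 10299 to 10838 genes called at 12 h, 264 to 387 with 2-fold not placed (387 without R8 0 h replicate 1 and 378 without replicate 2) and 3 to 5 lower beta-oxidation genes. Thinning to the smallest library left 9876 genes called at 12 h. Where no cause is named, the cause was not tested.

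Replicate numbers are shared between groups, but same-numbered 12 h libraries correlated at only -0.1858, 0.3151, and -0.0097 in their deviations, so the numbers were not taken to pair the samples. A replicate block gave 10742 genes called at 12 h, 7827 at 0 h, and 8342 for the change.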
